A study of Mus musculus with 12 samples.

Results

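The collagen genes of mouse kidney were followed through diabetic nephropathy with and without sodium butyrate. Members were the rows of the deposited count table whose symbol is Col, a number, the letter a and a number, with nothing after it. The rule found 44 genes among the 46095 symbols of the table. RNA-seq was made from 12 libraries, 4 in each of 3 groups. DN+NaB libraries came from C57BL/6 mice with diabetic nephropathy that received sodium butyrate (NaB), a salt of the short-chain fatty acid butyrate. DN libraries came from C57BL/6 mice with diabetic nephropathy, and NC libraries from normal control C57BL/6 mice. Every library is labelled as renal cortex of mice aged 12 weeks. How diabetes was brought about, and how, for how long and at what dose the butyrate was given, is not given in the sources used here. No label ties a library to a particular animal, and p-values here therefore measure only how these samples spread, which may in part be technical.

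Collagens are triple helices of 3 polypeptide chains, named by type and alpha chain. Fibrillar collagens (types I, II, III, V, XI, XXIV and XXVII) form fibres. Types I and III are the bulk of those in the interstitium between tubules, which thicken in kidney scarring. Type IV collagen forms the sheet-like network of basement membranes: the alpha1 and alpha2 chains are found in nearly all of them, and the alpha3, alpha4 and alpha5 chains form the network of the mature glomerular filter, where podocytes make them. Human mutations in the genes of those last chains cause Alport syndrome. Types XV and XVIII sit at the basement membrane zone, and type VI forms beaded filaments that link basement membranes with the surrounding fibres.

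Total counts ran from 58394975 to 70674015 per library, and the closest pair of libraries differed by a chi-square of 25.4 per degree of freedom, where counting noise alone gives about 1. Against the renal cortex label, the protocol for extraction mentions prefrontal cortex. Snap25, a gene of neurons, had 0 counts in each of the 12 libraries, while Lrp2, the megalin receptor of the proximal tubule, had 547305 to 852758 counts. The other brain genes listed, Slc17a7 and Gfap, had 0 to 2 and 2 to 41 counts per library. DN replicate 4 stood apart from the other DN libraries. Its summed level of the tubular injury genes Havcr1, Lcn2 and Krt20 was 259 CPM (the count scaled to the TMM-adjusted library size), against 2.97 to 13.2 CPM in DN replicates 1 to 3 and 4.81 to 6.72 CPM in NC. Collagen results that rest on this library are given with and without it.

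Of the 44 collagen genes, 35 had enough counts to be tested: 9 of 11 fibrillar genes, all 8 basement membrane genes (types IV, XV and XVIII) and 18 of 25 others. The 9 genes not tested were Col2a1, Col9a1, Col9a2, Col9a3, Col10a1, Col11a2, Col22a1, Col25a1 and Col28a1. Most of these are known from cartilage, and none had more than 29 counts in any library. The transcripts of cartilage and bone genes were also scarce, at 1.23 to 4.12 summed CPM over Acan, Sox9, Comp and Bglap across all libraries. By the test described below, Sox9 was higher in DN than in NC, with overlap (log2 fold change 1.45 ± 0.41 SE, edgeR adjusted p = 0.0416). Its means were 2.11 CPM in DN and 0.768 CPM in NC, and Comp did not pass.

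Collagen transcripts made up 0.241 ± 0.0263% of counts in DN+NaB, 0.212 ± 0.0386% in DN and 0.334 ± 0.0334% in NC (SD, n = 4 each). Basement membrane collagens were the bulk of them. They held 82.3 ± 1.73% of collagen counts in DN+NaB, 79.0 ± 4.86% in DN and 74.3 ± 2.35% in NC, and fibrillar collagens held 6.77 ± 0.575%, 10.3 ± 5.73% and 15.5 ± 1.35% of them in DN+NaB, DN and NC. The summed fibrillar level was 455 CPM in DN replicate 4 and lay between 122 and 175 CPM in the other DN libraries, so the wide DN spread comes from that library. In bulk tissue, fewer cells of a type and less RNA per cell cannot be told apart.

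**Figure D1:**
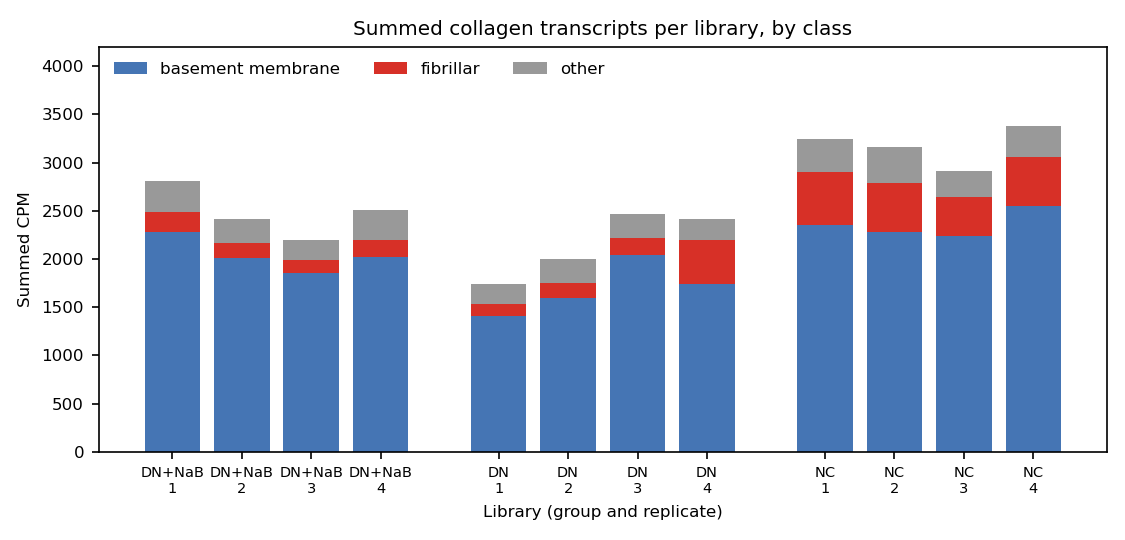
Summed CPM of collagen transcripts in each library (bars; groups DN+NaB, DN and NC, replicates 1 to 4), split into basement membrane, fibrillar and other collagens. Every NC bar is taller than every DN+NaB and DN bar, and DN replicate 4 carries a fibrillar part of 455 CPM.

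Per kilobase of transcript, the first 3 places in the order of levels were held by the same genes in all 3 groups. Col4a1, which encodes the alpha1(IV) chain, stood first at 84.1 ± 10.2 CPM per kb in DN+NaB, 68.7 ± 14.8 in DN and 91.0 ± 9.29 in NC (SD, n = 4 each). Col4a2 came second at 72.2 ± 7.15, 58.1 ± 9.97 and 74.1 ± 5.21 CPM per kb in DN+NaB, DN and NC, and these 2 ranges overlapped in DN+NaB and DN. Col18a1, the source of endostatin, came next at 63.8 ± 4.83, 54.5 ± 7.78 and 49.8 ± 4.88 CPM per kb. Its range overlapped that of Col4a2 in DN+NaB and DN and lay below it in NC, where it overlapped that of Col4a3. Places 4 and 5 were the alpha chains of the glomerular network: Col4a3 stood below Col4a4 in DN+NaB (28.6 ± 3.21 against 32.9 ± 1.45 CPM per kb) and in DN (23.2 ± 4.80 against 28.3 ± 3.27), and above it in NC (47.5 ± 9.40 against 41.0 ± 1.73), with ranges that overlapped in each group. The main fibre genes stood lower, not always directly after them. Col1a2 held places 7, 7 and 6 in DN+NaB, DN and NC, at 10.8 ± 2.73, 10.7 ± 4.68 and 22.5 ± 3.69 CPM per kb. Col3a1 held places 13, 6 and 7, and Col1a1 places 15, 11 and 8. In DN, Col3a1 ran from 2.58 to 31.9 CPM per kb, highest in replicate 4.

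Diabetic nephropathy was first set against normal control. In DN kidneys 15 of the 35 tested collagen genes fell (42.9%), none rose and 20 did not pass the test, where edgeR's quasi-likelihood test called a gene at a Benjamini-Hochberg adjusted p under 0.05 over all 17530 genes tested. Over all genes, 4.42% were called lower in DN and 3.82% higher, 8.23% in all. The median log2 fold change of the collagen genes was -0.72, and 29 of 35 lay below 0, beside a median of 0.01 over all genes. By class, 4 of 9 fibrillar genes fell (median log2 fold change -1.01), 4 of 8 basement membrane genes (-0.47) and 7 of 18 others (-0.68). The fibrillar median was the Col3a1 value, which rested on DN replicate 4 and was -2.54 without it. Without that library Col1a1 and Col3a1 were called lower too, and the Col6a3 call was lost. In 15 of 35 collagen genes all 4 DN libraries lay below all 4 NC libraries, and in 0 above; 7.49% and 5.86% of all genes separated in these directions. Among the called genes only Col5a1 and Col6a3 had groups that overlapped, and Col8a2 and Col19a1 separated without being called.

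**Figure D2:**
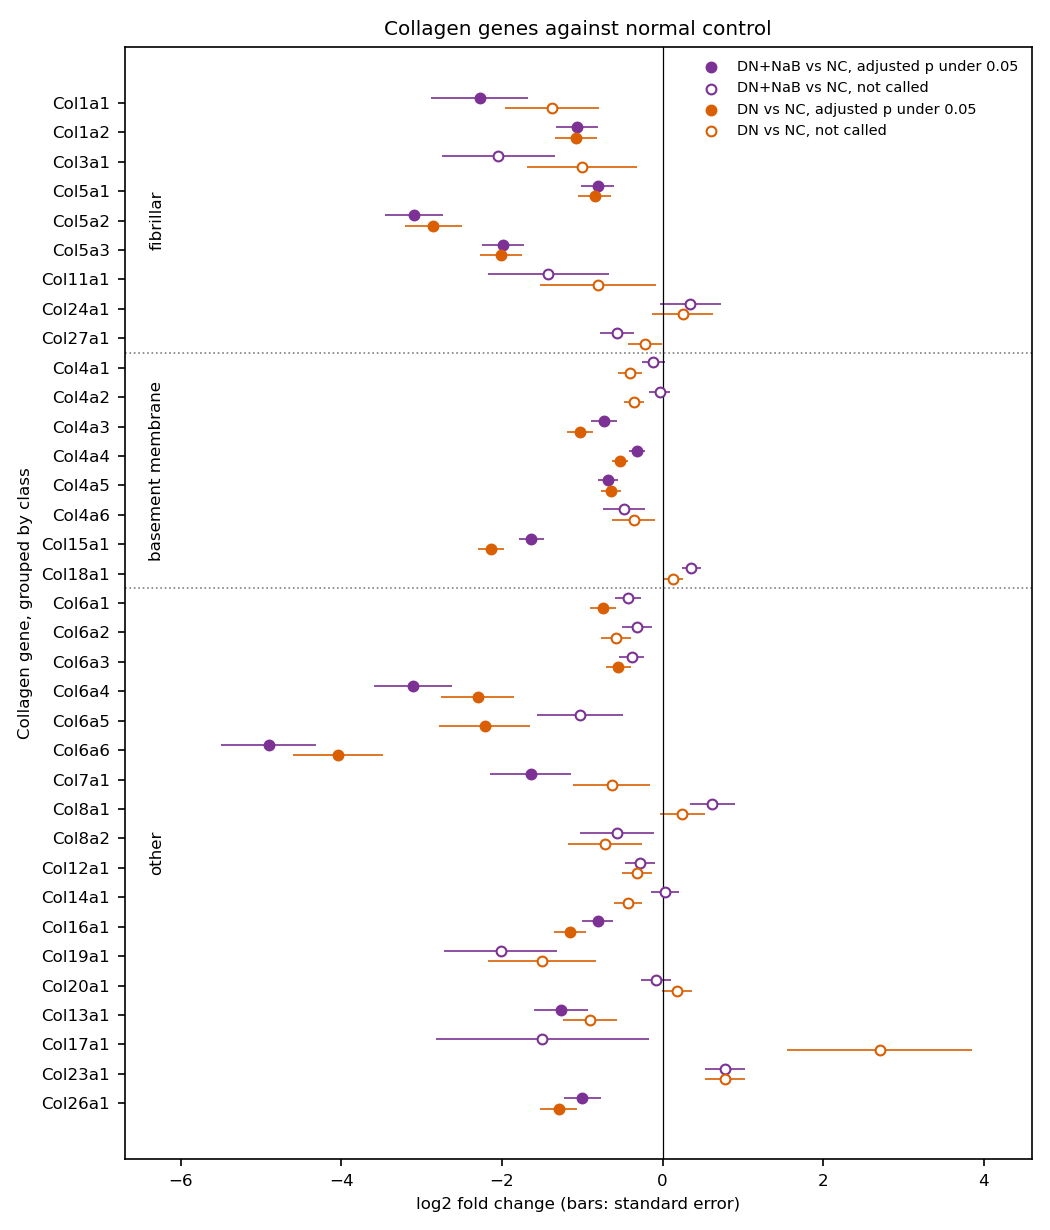
Fitted log2 fold change with its standard error (horizontal axis) for each of the 35 tested collagen genes, grouped by class, for DN+NaB over NC (purple) and DN over NC (orange); filled points have an adjusted p under 0.05. No filled point lies above 0, and Col6a6, Col5a2 and Col15a1 lie far to the left in both comparisons, which share the NC libraries.

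Among the fibrillar genes, all 3 type V genes fell. Col5a2 encodes a chain of the type V collagen that starts fibrils and sets their width. It had 4.51, 4.40, 4.66 and 14.6 CPM in DN replicates 1 to 4, against 53.3, 52.5, 52.1 and 46.3 CPM in NC. The groups did not overlap, and DN replicate 4 was the highest of its group; the fitted DN level was 13.8% of NC (log2 fold change -2.86 ± 0.35 SE, edgeR adjusted p = 3.16e-04; -3.52 without DN replicate 4). Col5a3, a further type V chain, had 0.846, 0.774, 0.833 and 1.11 CPM in DN, against 3.38, 2.93, 3.04 and 5.03 CPM in NC. Again every DN library lay below every NC library (log2 fold change -2.01 ± 0.26, edgeR adjusted p = 2.68e-04). Col5a1, the chain most type V molecules hold, had 17.4, 18.8, 19.7 and 27.8 CPM in DN, against 40.4, 41.5, 25.6 and 43.1 CPM in NC. Here DN replicate 4 overlapped NC replicate 3, the only low NC library (log2 fold change -0.85 ± 0.21, edgeR adjusted p = 0.0213).

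The genes of types I and III, the bulk of interstitial fibres, split on DN replicate 4. Col1a2 had 36.0, 46.5, 52.7 and 93.2 CPM in DN, against 141, 131, 96.3 and 114 CPM in NC. The groups lay apart by a small gap, with DN replicate 4 closest to NC (log2 fold change -1.08 ± 0.26, edgeR adjusted p = 0.0242; -1.44 and 6.29e-04 without DN replicate 4). Col1a1, which encodes the other chain of type I, had 12.6, 23.8, 22.8 and 114 CPM in DN, against 127, 105, 92.5 and 127 CPM in NC. Col3a1, the sole chain of type III, had 14.4, 26.7, 21.9 and 177 CPM in DN, against 134, 123, 91.7 and 133 CPM in NC. For both genes 3 DN libraries lay far below NC and DN replicate 4 lay within or above it, and neither was called (log2 fold changes -1.38 ± 0.59 and -1.01 ± 0.68, edgeR adjusted p = 0.203 and 0.446). Without DN replicate 4 both had a log2 fold change of -2.54 and were called, with edgeR adjusted p = 2.09e-04 for Col1a1 and 2.40e-05 for Col3a1.

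The remaining fibrillar genes gave no call: Col27a1, known from cartilage, had 25.7 to 51.7 CPM in DN and 35.01 to 53.4 CPM in NC, and Col11a1 and Col24a1 stayed under 1 CPM in every library. The calls of Col1a2 and Col5a1 depended on single libraries. Col1a2 missed the threshold without NC replicate 1 or 2 or without DN replicate 2 or 3 (edgeR adjusted p = 0.0600 to 0.0696), and Col5a1 without NC replicate 1, 2 or 4 or without DN replicate 1, 2 or 3 (0.0524 to 0.0609).

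Promoters of 2 fibre genes are shown, those of Col1a2, which was called with DN replicate 4 below NC, and of Col3a1, which was not called and had DN replicate 4 above NC. Each window runs from 250 bases before to 50 bases after the annotated start, from RefSeq on GRCm38.p6, written 5′ to 3′ on the gene's strand. Capitals mark core letters on either strand: CCAAT for the box of that name, GGGCGG for the GC box, and TATAAA for the TATA box.
Col1a2 (chr6:4505368-4505667, plus strand): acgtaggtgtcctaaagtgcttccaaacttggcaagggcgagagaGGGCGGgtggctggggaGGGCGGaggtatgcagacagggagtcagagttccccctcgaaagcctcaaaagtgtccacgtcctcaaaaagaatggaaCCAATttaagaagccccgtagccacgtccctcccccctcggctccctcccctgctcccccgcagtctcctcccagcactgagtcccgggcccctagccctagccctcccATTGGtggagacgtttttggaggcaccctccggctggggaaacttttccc
Col3a1 (chr1:45311288-45311587, plus strand): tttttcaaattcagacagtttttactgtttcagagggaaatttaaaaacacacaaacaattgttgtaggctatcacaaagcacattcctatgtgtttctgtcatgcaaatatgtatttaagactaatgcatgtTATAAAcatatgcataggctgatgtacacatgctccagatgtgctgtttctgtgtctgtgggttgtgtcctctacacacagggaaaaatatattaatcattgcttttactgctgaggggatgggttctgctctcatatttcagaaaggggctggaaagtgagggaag

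The Col1a2 window held CCAAT at 109 bases before the start and at the start on the opposite strand, with 2 GGGCGG motifs further out. The Col3a1 window, richer in A and T, held TATAAA 117 bases before the start and neither of the other motifs. RefSeq windows were found for 35 of the 44 collagen genes, 38 windows in all. Of these, 34.2% held CCAAT, 60.5% GGGCGG and 13.2% TATAAA, beside 37.4%, 35.7% and 13.6% of the 32851 windows of all genes. A match is a description of letters in a window and shows neither binding nor use.

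In the type IV network the genes of the 3 chains known from the glomerular filter fell. Bulk cortex does not show which cells these transcripts came from. Col4a3 had 152, 179, 224 and 241 CPM in DN, against 410, 327, 372 and 515 CPM in NC. Every DN library lay below every NC library, at 49.0% of the NC level in the fit (log2 fold change -1.03 ± 0.17, edgeR adjusted p = 0.00143). Col4a4 had 262, 288, 333 and 263 CPM in DN, against 421, 390, 415 and 431 CPM in NC, again without overlap (log2 fold change -0.53 ± 0.10, edgeR adjusted p = 0.0041). Col4a5, the X-linked chain, had 46.9, 50.9, 55.8 and 54.2 CPM in DN, against 75.9, 69.4, 92.4 and 86.5 CPM in NC, also apart (log2 fold change -0.64 ± 0.13, edgeR adjusted p = 0.00584).

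The ubiquitous type IV chains were not called. Col4a1 had 352, 408, 579 and 480 CPM in DN, against 576, 596, 548 and 690 CPM in NC. Col4a2 had 320, 350, 467 and 362 CPM in DN, against 464, 515, 438 and 495 CPM in NC. In both, DN replicate 3 lay within the NC range and the other DN libraries below it (log2 fold changes -0.41 ± 0.15 and -0.35 ± 0.13, edgeR adjusted p = 0.120 and 0.110); without DN replicate 3 both passed, at -0.54 and -0.48 (0.0304 and 0.0199). Col4a6, a chain of Bowman's capsule and some tubules, had 4.42, 5.82, 4.06 and 6.20 CPM in DN and 5.82, 5.66, 10.1 and 4.78 CPM in NC, which overlapped (log2 fold change -0.36 ± 0.26, edgeR adjusted p = 0.470).

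Col4a1 and Col4a2 lie head to head, and their windows are shown because the pair kept a close ratio in every library. Their annotated starts are 21 bases apart on opposite strands, so the windows share 78 bases; capitals are as above.
Col4a1 (chr8:11312777-11313076, minus strand): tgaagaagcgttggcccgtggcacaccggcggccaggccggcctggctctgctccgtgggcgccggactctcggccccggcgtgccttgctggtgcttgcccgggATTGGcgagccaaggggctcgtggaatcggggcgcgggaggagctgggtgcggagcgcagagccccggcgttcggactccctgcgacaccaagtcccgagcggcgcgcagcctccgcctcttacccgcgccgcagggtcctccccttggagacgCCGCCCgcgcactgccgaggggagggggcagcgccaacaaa
Col4a2 (chr8:11312555-11312854, plus strand): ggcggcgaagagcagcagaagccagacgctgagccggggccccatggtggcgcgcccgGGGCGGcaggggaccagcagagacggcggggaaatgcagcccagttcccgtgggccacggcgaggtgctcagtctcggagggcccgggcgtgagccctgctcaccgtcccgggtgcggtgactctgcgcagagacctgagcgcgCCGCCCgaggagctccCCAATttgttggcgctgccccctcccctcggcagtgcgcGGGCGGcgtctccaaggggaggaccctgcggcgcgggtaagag

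Each window held CCAAT and GGGCGG letters on one strand or the other. Per kilobase, the ratio of Col4a1 to Col4a2 was 1.14 to 1.21 in DN+NaB, 1.07 to 1.29 in DN and 1.13 to 1.36 in NC, with overlap between all groups. The sum of Col4a3, Col4a4 and Col4a5 over the sum of Col4a1 and Col4a2 was 0.413 to 0.5001 in DN+NaB, 0.423 to 0.494 in DN and 0.515 to 0.654 in NC. Every DN+NaB and DN library lay below every NC library in this ratio, which is given as a description, with no test. The genes Col4a3 and Col4a4 are also neighbours, on chromosome 1, and their ratio was 0.765 to 0.951 in DN+NaB, 0.684 to 1.08 in DN and 0.991 to 1.41 in NC; DN replicate 4 overlapped NC, and the DN+NaB libraries lay below it.

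**Figure D3:**
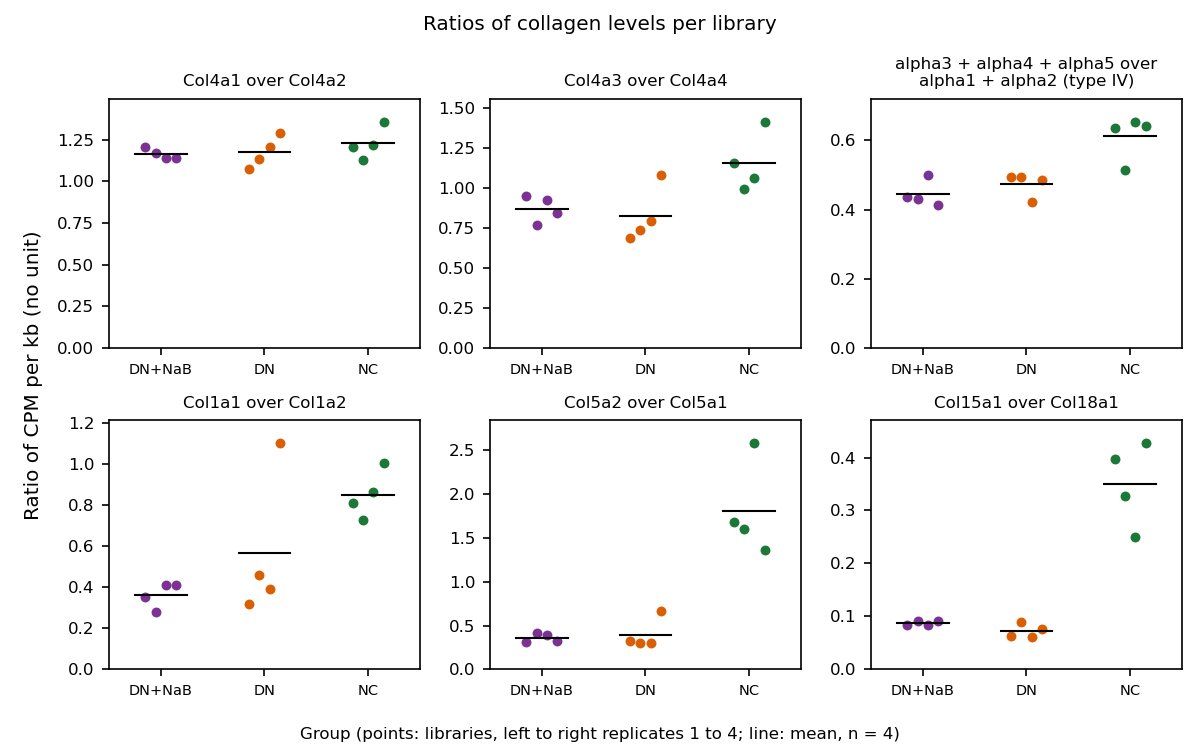
Ratios of collagen levels (CPM per kb, no unit, axis from 0) in each library, for groups DN+NaB, DN and NC; points are replicates 1 to 4 and lines the means. Col4a1 over Col4a2 overlaps in all groups, and the summed alpha3, alpha4 and alpha5 chains over alpha1 and alpha2, Col5a2 over Col5a1 and Col15a1 over Col18a1 lie lower in DN+NaB and DN than in NC without overlap.

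Of the 2 multiplexins of the basement membrane zone, Col15a1 fell and Col18a1 was not called. Col15a1, the chain of type XV, had 15.2, 23.8, 20.7 and 21.7 CPM in DN, against 107, 88.1, 67.9 and 94.0 CPM in NC. No library of one group came near the other (log2 fold change -2.13 ± 0.16, edgeR adjusted p = 2.29e-06), and it was the collagen gene with the smallest p in this comparison. Col18a1 had 260, 288, 362 and 310 CPM in DN, against 292, 291, 294 and 238 CPM in NC, and the groups overlapped (log2 fold change 0.13 ± 0.12, edgeR adjusted p = 0.586). Per kilobase, Col15a1 over Col18a1 was 0.0832 to 0.0916 in DN+NaB, 0.0618 to 0.0897 in DN and 0.250 to 0.428 in NC, so no DN+NaB or DN library reached the NC range. Of 7 endothelial markers, Cdh5 and Ehd3 were called lower in DN and 5 gave no call; their summed level was 603 to 726 CPM in DN and 690 to 864 CPM in NC. The part of endothelial transcripts in the Col15a1 result was not tested.

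**Figure D4:**
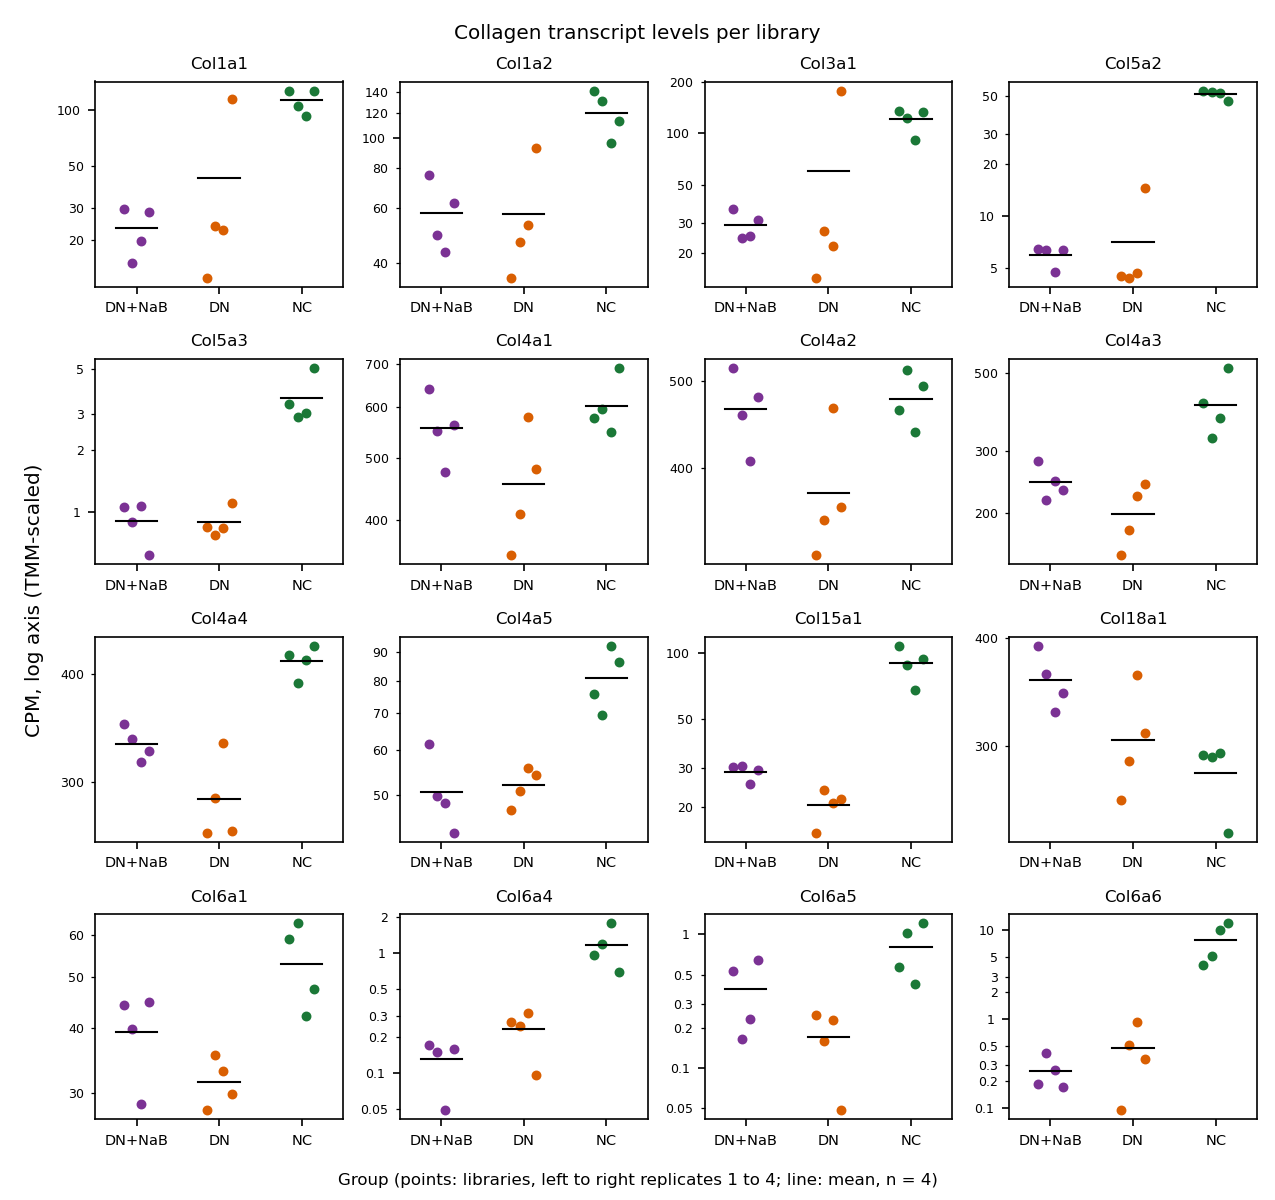
CPM on a log axis for 16 collagen genes in each library of DN+NaB, DN and NC; points are replicates 1 to 4 from left to right and lines are means (n = 4). Col5a2, Col15a1 and Col6a6 separate both DN+NaB and DN from NC, and DN replicate 4 stands high for Col1a1 and Col3a1.

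Of the type VI genes 5 of 6 fell. The classic chains, Col6a1, Col6a2 and Col6a3, are those assembled in most tissues. Col6a1 had 27.9, 35.5, 33.0 and 29.9 CPM in DN, against 59.0, 63.1, 42.1 and 47.3 CPM in NC, with no overlap (log2 fold change -0.74 ± 0.16, edgeR adjusted p = 0.0106). Col6a3 had 46.6, 53.0, 55.9 and 42.4 CPM in DN, against 79.8, 84.6, 54.8 and 71.5 CPM in NC. NC replicate 3 lay among the DN libraries (log2 fold change -0.55 ± 0.16, edgeR adjusted p = 0.0420). Col6a2 had 17.0, 23.8, 27.6 and 22.7 CPM in DN, against 36.6, 41.0, 25.8 and 32.9 CPM in NC, and again only NC replicate 3 reached down to the DN libraries. It missed the threshold (log2 fold change -0.58 ± 0.19, edgeR adjusted p = 0.0714) and passed without NC replicate 3 or DN replicate 3 (0.0420 and 0.0496). The Col6a3 call was lost without NC replicate 1, 2 or 4 or DN replicate 1, 2 or 4 (0.0576 to 0.111).

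The 3 alternative chains, Col6a4, Col6a5 and Col6a6, can take the place of the alpha3(VI) chain, and their genes are neighbours on chromosome 9. They were scarce, and had lower log2 fold changes than the classic chains. Col6a6 had 0.0940, 0.510, 0.923 and 0.355 CPM in DN, against 4.03, 5.06, 10.2 and 11.9 CPM in NC. In counts these were 6, 29, 61 and 22 in DN and 263, 327, 675 and 861 in NC, at 6.07% of the NC level in the fit (log2 fold change -4.04 ± 0.56, edgeR adjusted p = 6.15e-04). Col6a6 had the lowest log2 fold change of the 35 collagen genes. Col6a4 had 17, 14, 21 and 6 counts in DN, against 63, 77, 117 and 50 counts in NC (log2 fold change -2.30 ± 0.46, edgeR adjusted p = 0.00603). Col6a5 had 16, 9, 15 and 3 counts in DN, against 37, 66, 28 and 87 counts in NC (log2 fold change -2.22 ± 0.57, edgeR adjusted p = 0.0261). None of these 3 genes overlapped between DN and NC; the Col6a5 call was lost without NC replicate 2 or 4 or DN replicate 2 (0.0677 to 0.0713).

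The promoter windows of the 3 neighbours are shown because the genes were called lower together. Capitals are as above.
Col6a4 (chr9:106096642-106096941, minus strand): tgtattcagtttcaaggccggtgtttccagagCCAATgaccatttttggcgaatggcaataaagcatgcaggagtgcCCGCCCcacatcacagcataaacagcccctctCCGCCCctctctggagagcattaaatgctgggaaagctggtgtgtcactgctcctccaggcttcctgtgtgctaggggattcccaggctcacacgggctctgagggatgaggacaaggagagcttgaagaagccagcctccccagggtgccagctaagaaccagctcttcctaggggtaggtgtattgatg
Col6a5 (chr9:105960594-105960893, minus strand): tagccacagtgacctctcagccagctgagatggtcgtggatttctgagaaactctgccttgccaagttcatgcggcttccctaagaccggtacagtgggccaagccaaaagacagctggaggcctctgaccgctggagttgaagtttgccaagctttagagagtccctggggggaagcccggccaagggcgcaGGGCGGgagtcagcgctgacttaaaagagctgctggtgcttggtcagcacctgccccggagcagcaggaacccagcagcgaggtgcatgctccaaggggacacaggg
Col6a6 (chr9:105828036-105828335, minus strand): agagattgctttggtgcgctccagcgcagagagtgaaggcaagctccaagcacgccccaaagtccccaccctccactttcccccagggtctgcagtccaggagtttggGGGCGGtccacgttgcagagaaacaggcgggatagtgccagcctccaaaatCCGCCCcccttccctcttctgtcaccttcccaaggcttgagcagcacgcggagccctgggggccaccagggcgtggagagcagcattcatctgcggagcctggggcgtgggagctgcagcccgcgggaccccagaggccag

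All 3 held GGGCGG letters, CCAAT was found only in the Col6a4 window, and none held TATAAA. These motifs are shared with many promoters, as the shares above show.

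Of the other collagens, Col16a1 and Col26a1 fell. Col16a1, a fibril-associated collagen, had 2.08, 2.46, 3.41 and 2.78 CPM in DN, against 7.23, 5.63, 5.42 and 5.60 CPM in NC, with no overlap (log2 fold change -1.15 ± 0.20, edgeR adjusted p = 0.00233). Col26a1 had 3.59, 3.82, 4.68 and 1.73 CPM in DN, against 9.22, 7.88, 8.19 and 8.63 CPM in NC, also apart (log2 fold change -1.30 ± 0.23, edgeR adjusted p = 0.0033). The transmembrane chain gene Col23a1 was the nearest to a call on the higher side. It had 6.28, 7.92, 8.17 and 7.15 CPM in DN, against 3.93, 3.53, 6.36 and 3.38 CPM in NC, where NC replicate 3 overlapped DN (log2 fold change 0.78 ± 0.25, edgeR adjusted p = 0.0745; 1.03 and 0.0230 without NC replicate 3). Col13a1, another transmembrane chain, was not called (log2 fold change -0.90 ± 0.33, edgeR adjusted p = 0.123; -1.15 and 0.0307 without NC replicate 4). Col17a1, known from the hemidesmosomes of skin, had the highest log2 fold change, 2.70 ± 1.15, which rested on DN replicate 4 alone: 3.99 CPM there, against 0.0528 to 0.167 CPM in the other DN libraries and 0.0464 to 0.256 CPM in NC. Without that library it was -0.72, and it was not called either way (edgeR adjusted p = 0.194 and 0.546).

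Col6a2, Col13a1, Col17a1 and Col23a1, described above, were 4 of the 11 uncalled members of the other class. The remaining 7 were Col7a1, Col8a1, Col8a2, Col12a1, Col14a1, Col19a1 and Col20a1, with log2 fold changes between -1.50 for Col19a1 and 0.25 for Col8a1. The abundant ones among them were Col14a1 (55.9 to 72.2 CPM in DN and 65.7 to 113 CPM in NC) and Col12a1 (20.2 to 23.6 CPM in DN replicates 1 to 3, 33.3 CPM in DN replicate 4 and 28.3 to 35.02 CPM in NC), both associated with the surface of fibrils. The Col12a1 log2 fold change was -0.32 ± 0.19, and -0.51 without DN replicate 4 (edgeR adjusted p = 0.357 and 0.0783). Fibroblast and pericyte markers, whose cells make much of the interstitial collagen, summed to 262 to 322 CPM in DN and 310 to 383 CPM in NC. Of these 8 genes Rgs5 was called lower, and the median log2 fold change over the list was -0.28. The 7 uncalled genes ran from -1.07 for Gli1 to 0.05 for Lum, with Pdgfra, a fibroblast receptor, at -0.09 ± 0.19 (edgeR adjusted p = 0.845). Macrophage markers summed to 173 CPM in DN replicate 4, 76.1 to 86.7 CPM in the other DN libraries and 137 to 176 CPM in NC, with Csf1r called lower among 4 genes. T cell markers summed to 2.41 to 8.28 CPM in DN and 10.5 to 14.9 CPM in NC, with Cd4 called lower among 4. Loop and distal nephron markers summed to 5007 to 6592 CPM in DN and 5973 to 10742 CPM in NC, with Umod called lower among 4. The smooth muscle list gave no call among 5 genes, and the mesangial and proximal tubule lists none among 4 each. The part of these cells in the collagen results was not tested.

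Sodium butyrate in diabetic mice was then examined. Between DN+NaB and DN none of the 35 collagen genes was called by edgeR, and 4 of 17530 genes were called in all (0.0228%). DESeq2 and limma voom also called 0 collagen genes here. At an unadjusted p under 0.05 there were 5 collagen genes, beside 9.85% of all genes: Col15a1, Col17a1, Col14a1, Col4a2 and Col4a4. The median log2 fold change was 0.04, with 20 of 35 above 0, beside -0.02 over all genes; by class the median was -0.24 over 9 fibrillar, 0.26 over 8 basement membrane and 0.09 over 18 other genes. The fibrillar median was the Col5a2 value, and it rested on DN replicate 4. Without that library Col5a2, Col1a1, Col3a1 and Col11a1 turned positive (log2 fold changes 0.40, 0.24, 0.48 and 0.62). Col1a2, Col5a1, Col5a3 and Col24a1 were positive with and without it, and Col27a1 stayed negative (-0.50). These fold changes do not show that the groups were alike.

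Col15a1 was the only collagen gene whose DN+NaB and DN libraries did not overlap; 2.13% of all genes lay apart in that direction and 2.44% in the other. It had 30.1, 30.5, 25.3 and 29.3 CPM in DN+NaB, against 15.2, 23.8, 20.7 and 21.7 CPM in DN. Every DN+NaB library lay above every DN library and below every NC library, and the difference did not pass the adjustment (log2 fold change 0.50 ± 0.15, edgeR adjusted p = 0.283). Col14a1 had 107, 81.9, 65.6 and 109 CPM in DN+NaB, against 64.4, 70.7, 72.2 and 55.9 CPM in DN (log2 fold change 0.46 ± 0.18, edgeR adjusted p = 0.423). DN+NaB replicate 3 lay among the DN libraries and the other 3 above them.

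Of the 6 type IV genes 4 had small positive log2 fold changes, and none passed. Col4a2 had 517, 459, 407 and 481 CPM in DN+NaB, against 320, 350, 467 and 362 CPM in DN (log2 fold change 0.31 ± 0.13, edgeR adjusted p = 0.441). Col4a4 had 350, 336, 316 and 325 CPM in DN+NaB, against 262, 288, 333 and 263 CPM in DN (log2 fold change 0.21 ± 0.10, edgeR adjusted p = 0.508). In both genes only DN replicate 3 reached the DN+NaB libraries. Col4a1 and Col4a3 had log2 fold changes of 0.29 ± 0.15 and 0.30 ± 0.16 (edgeR adjusted p = 0.557 and 0.590). Col18a1 had 392, 363, 328 and 346 CPM in DN+NaB, overlapping DN (log2 fold change 0.23 ± 0.12, edgeR adjusted p = 0.566).

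For Col1a1 and Col3a1 the direction of this comparison was set by DN replicate 4. Col1a1 had 29.6, 15.1, 19.9 and 28.5 CPM in DN+NaB, and Col3a1 had 36.3, 24.4, 25.2 and 31.2 CPM, which overlapped DN replicates 1 to 3. Their log2 fold changes were -0.90 ± 0.58 and -1.04 ± 0.69 with all libraries (edgeR adjusted p = 0.651 and 0.657), and 0.24 and 0.48 without DN replicate 4 (0.966 and 0.646). Col17a1 had 3, 6, 2 and 3 counts in DN+NaB, against 5, 3, 11 and 247 counts in DN, and its log2 fold change of -4.20 ± 1.30 (edgeR adjusted p = 0.295) rested on the same library; it was -0.80 without DN replicate 4 (0.948). Col6a5 had 31, 10, 14 and 45 counts in DN+NaB, against 16, 9, 15 and 3 counts in DN (log2 fold change 1.19 ± 0.57, edgeR adjusted p = 0.517).

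Butyrate-treated diabetic kidneys were finally set against normal control. In DN+NaB 15 of 35 collagen genes fell (42.9%), none rose and 20 were not called, by the same edgeR rule. Over all genes 8.94% were called lower and 6.62% higher. The collagen median was -0.73, beside -0.01 over all genes, with 5 of 9 fibrillar, 4 of 8 basement membrane and 6 of 18 other genes called. In 17 collagen genes all DN+NaB libraries lay below all NC libraries, and Col18a1 alone lay wholly above; 13.9% and 14% of all genes separated in these directions. Col11a1 and Col19a1 are among the 17, with at most 7 and 10 counts in a DN+NaB library. The count filter may have kept these genes for their NC counts. The 2 comparisons against NC share the NC libraries, so their calls are not independent; 12 genes were called in both, 80% of each set of 15.

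Col1a1, Col7a1 and Col13a1 were called in DN+NaB against NC and not in DN against NC. With the values given above, every DN+NaB library had less Col1a1 than every NC library (log2 fold change -2.28 ± 0.61, edgeR adjusted p = 0.0287). Without DN replicate 4 Col1a1 was called in DN against NC too, as given above. Col7a1, the anchoring fibril chain, had 41, 13, 26 and 22 counts in DN+NaB and 111, 70, 81 and 85 counts in NC (log2 fold change -1.64 ± 0.50, edgeR adjusted p = 0.0393). In DN, Col7a1 had 58, 20, 24 and 106 counts, with replicate 4 the highest. Its log2 fold change of DN over NC was -0.63, and -1.27 without DN replicate 4 (edgeR adjusted p = 0.495 and 0.0855). Col13a1 had 0.613, 0.745, 0.625 and 0.747 CPM in DN+NaB, against 1.99, 2.14, 1.66 and 0.791 CPM in NC, where NC replicate 4 lay just above the DN+NaB libraries (log2 fold change -1.26 ± 0.34, edgeR adjusted p = 0.0218). In the opposite way, Col6a1, Col6a3 and Col6a5 were called in DN and not in DN+NaB, where their log2 fold changes against NC were -0.43 ± 0.16, -0.39 ± 0.16 and -1.03 ± 0.53 (edgeR adjusted p = 0.0872, 0.110 and 0.213). None of these 6 genes was called between DN+NaB and DN, so a difference in call here is not a tested difference between the groups. All 3 calls of the first set were lost when single libraries were left out: Col1a1 without NC replicate 1 or 4 or any DN+NaB library (0.0536 to 0.0811), Col7a1 without any library but DN+NaB replicate 1 (0.0576 to 0.112) and Col13a1 without NC replicate 1 or 2 or DN+NaB replicate 1 or 3 (0.0531 to 0.0621). Leaving out NC replicate 3 brought Col6a3 past the threshold (0.0393). Each of these fits kept all DN libraries, DN replicate 4 among them, in its estimate of the spread. The Col1a1 call was kept with only the 2 groups compared, with DESeq2 and with limma voom. It was lost with no filter beyond 1 count.

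The type V chains again lay far below NC. Col5a2 had 6.43, 6.34, 4.72 and 6.36 CPM in DN+NaB, at 11.7% of the NC level in the fit (log2 fold change -3.10 ± 0.36, edgeR adjusted p = 1.38e-04), and no library came near the lowest NC value of 46.3 CPM. Col5a3 had 1.05, 0.894, 1.07 and 0.617 CPM in DN+NaB (log2 fold change -1.98 ± 0.26, edgeR adjusted p = 2.09e-04). Per kilobase, Col5a2 over Col5a1 was 0.308 to 0.414 in DN+NaB, 0.297 to 0.666 in DN and 1.36 to 2.59 in NC, with no overlap between NC and either diabetic group. Col5a1 itself had 26.5, 19.4, 15.4 and 24.6 CPM in DN+NaB and overlapped NC replicate 3 (log2 fold change -0.81 ± 0.21, edgeR adjusted p = 0.0174). Col1a2 had 76.1, 49.0, 43.4 and 62.2 CPM in DN+NaB, all below NC (log2 fold change -1.06 ± 0.26, edgeR adjusted p = 0.0167). The Col1a2 and Col5a1 calls were lost without DN+NaB replicate 2 or 3 (0.0511 to 0.0560). Col3a1 lay below NC in all DN+NaB libraries and was not called (log2 fold change -2.04 ± 0.70, edgeR adjusted p = 0.0780). The main fit estimated the spread over all 3 groups, DN replicate 4 included. Col3a1 was called lower with only the 2 groups compared and with limma voom, and in no other setting tried.

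The glomerular type IV chains stayed below NC with butyrate. Col4a3 had 282, 218, 246 and 232 CPM in DN+NaB (log2 fold change -0.73 ± 0.17, edgeR adjusted p = 0.00815), and Col4a5 had 61.6, 49.7, 48.3 and 42.8 CPM (log2 fold change -0.68 ± 0.13, edgeR adjusted p = 0.00255). For Col4a4 the log2 fold change was -0.32 ± 0.10 (edgeR adjusted p = 0.0437), a call that was lost without NC replicate 1 or 3 or any DN+NaB library (0.0652 to 0.121). None of these chains overlapped NC. Col4a1 had 639, 550, 475 and 562 CPM in DN+NaB and a log2 fold change of -0.11 ± 0.15 (edgeR adjusted p = 0.648), and Col4a2 one of -0.04 ± 0.13 (edgeR adjusted p = 0.875), both overlapping NC. Col15a1 was at 32.2% of NC (log2 fold change -1.63 ± 0.16, edgeR adjusted p = 1.6e-05), and Col18a1 was above NC in all libraries without being called (log2 fold change 0.36 ± 0.12, edgeR adjusted p = 0.0563). Under other settings Col18a1 was called higher: a filter of at least 1 CPM in 4 libraries, only the 2 groups compared, DESeq2 and limma voom.

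Of type VI, Col6a6 and Col6a4 were called in DN+NaB. Col6a6 had 11, 25, 16 and 12 counts in DN+NaB, against at least 263 counts in each NC library, at 3.33% of the NC level in the fit (log2 fold change -4.91 ± 0.60, edgeR adjusted p = 1.62e-04). Col6a4 had 10, 9, 3 and 11 counts in DN+NaB, against at least 50 counts in each NC library (log2 fold change -3.11 ± 0.48, edgeR adjusted p = 7.14e-04). Neither gene overlapped. Col16a1 had 3.88, 3.91, 2.75 and 3.09 CPM in DN+NaB (log2 fold change -0.81 ± 0.20, edgeR adjusted p = 0.0128), and Col26a1 had 4.49, 4.39, 3.98 and 4.11 CPM (log2 fold change -0.999 ± 0.23, edgeR adjusted p = 0.00997), both below all NC libraries. Col23a1 had 10.8, 5.65, 7.70 and 5.27 CPM in DN+NaB, overlapped NC replicate 3 and was not called (log2 fold change 0.77 ± 0.25, edgeR adjusted p = 0.0510; 0.0147 without NC replicate 3 and 0.0388 without DN+NaB replicate 4). All 4 T cell markers were called lower in DN+NaB than in NC (1.33 to 2.35 against 10.5 to 14.9 summed CPM), as were 3 of 4 macrophage markers (73.6 to 85.3 against 137 to 176 CPM). Fibroblast and pericyte markers summed to 279 to 357 CPM in DN+NaB, with Gli1 and Rgs5 called lower and 6 of 8 not called. Of 4 loop and distal nephron markers 2 were called lower, with 4927 to 6355 summed CPM in DN+NaB. The part of these cells in the collagen results was not tested.

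Genes that make, bind or degrade collagen were described from lists. Of 67 listed genes 62 were tested; in DN against NC 6 fell, 1 rose and 55 were not called, with a median log2 fold change of -0.14. These 7 calls in 62 stand beside 8.23% of all genes called in either direction. Of 17 genes for folding and hydroxylation in the endoplasmic reticulum Fkbp10, a prolyl isomerase, fell (log2 fold change -0.79 ± 0.21, edgeR adjusted p = 0.0323). Serpinh1, the collagen chaperone HSP47, had 122, 149, 182 and 229 CPM in DN and 189, 191, 183 and 143 CPM in NC, which overlapped (log2 fold change -0.05 ± 0.19, edgeR adjusted p = 0.919). None of 7 genes for propeptide removal was called.

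Among 7 crosslinking genes Pxdn, the peroxidasin that links type IV collagen, fell (log2 fold change -0.65 ± 0.14, edgeR adjusted p = 0.0105), and Tgm2, a transglutaminase, rose. Tgm2 had 693 to 1081 CPM in DN and 452 to 522 CPM in NC (log2 fold change 0.73 ± 0.14, edgeR adjusted p = 0.00461). Lox, which crosslinks fibrillar collagen, had 1.82, 2.08, 2.04 and 9.09 CPM in DN and 3.38, 3.54, 2.74 and 5.80 CPM in NC (log2 fold change -0.04 ± 0.52, edgeR adjusted p = 0.980); DN replicate 4 was high, as for Col1a1 and Col3a1, and without it the log2 fold change was -0.99 (edgeR adjusted p = 0.0886).

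Of 10 fibril-binding genes 3 fell. Sparc, a collagen-binding matricellular protein also found in basement membranes, had 89.5, 97.6, 112 and 120 CPM in DN, against 290.3, 285, 217 and 281 CPM in NC. These groups lay far apart, with DN replicate 4 among the rest (log2 fold change -1.35 ± 0.14, edgeR adjusted p = 4.2e-05). Fmod (fibromodulin) and Postn (periostin) had log2 fold changes of -1.03 ± 0.15 and -1.94 ± 0.42 (edgeR adjusted p = 7.46e-04 and 0.0114). Mmp2, a gelatinase, fell (log2 fold change -0.95 ± 0.23, edgeR adjusted p = 0.0213) among 7 tested genes for degradation. Its groups overlapped, with NC replicate 3 at 6.07 CPM within the DN range of 3.45 to 6.51 CPM. None of 8 receptors or 6 inducers was called, Tgfb1 having a log2 fold change of -0.14 ± 0.14 (edgeR adjusted p = 0.630).

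Between DN+NaB and DN none of the 62 genes was called by edgeR. Against NC, DN+NaB had 4 lower and 3 higher of 62, beside 8.94% and 6.62% of all genes, so these shares were no higher than over all genes. Sparc, Fmod, Postn and the collagenase gene Mmp13 fell (log2 fold changes -1.06, -0.69, -1.78 and -2.47), and Tgm2, Loxl4, a lysyl oxidase relative, and Smad3, a transducer of TGF-beta signals, rose (0.85, 1.34 and 0.38), all with an edgeR adjusted p between 2.26e-04 and 0.0449.

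**Figure D5:**
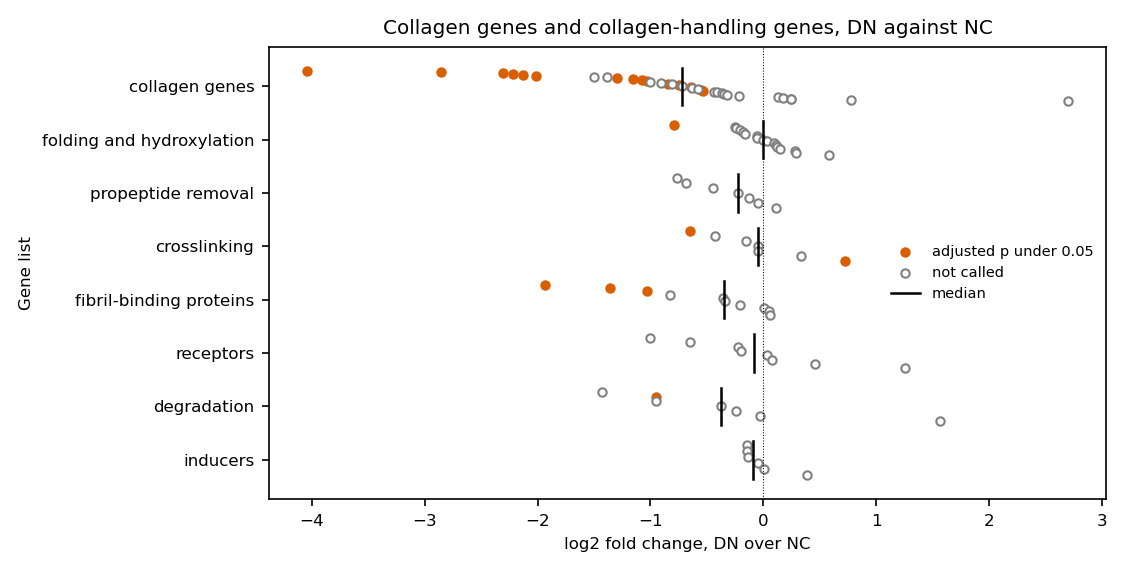
Log2 fold change of DN over NC (horizontal axis) for the 35 tested collagen genes and the tested genes of the lists of collagen-handling genes; filled points have an adjusted p under 0.05 and bars are medians. Of the collagen genes 15 are filled, all below 0, and of the 62 others 7 are filled, with Tgm2 the one above 0.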

How the data were processed

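Per the labels, 12 RNA-seq libraries of mouse renal cortex were made from frozen tissue, and groups were taken from their titles, disease and treatment labels. The authors deposited 1 table of raw counts for each gene symbol. Per the submitters' processing notes, HISAT2 2.0.4 was used. How reads were counted, whether strand was used, and which annotation and build served are not stated in the sources used here. Reads from overlapping exons, such as the 22 bases shared by Col4a1 and Col4a2, may therefore be split either way.

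Genes were filtered with filterByExpr (17530 of 46095 kept), scaled with TMM factors and fitted whole in 1 edgeR quasi-likelihood model with robust estimation (edgeR 4.0.16, R 4.3.3), with group as the only term. Tests were two-sided, and calls needed an adjusted p (Benjamini-Hochberg) under 0.05. Fold changes carry standard errors. CPM per kb used the transcript with the longest coding sequence in GENCODE annotation of GRCm38. Motifs were searched on both strands of 300-base RefSeq windows. The fit was tested on simulated counts.

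Members, classes and lists were chosen with earlier results of these data known. Named were all collagen genes called in a comparison, a set list of type I, III, IV, VI, XV and XVIII genes, called members of the collagen-handling lists (at most 4 a list) and Serpinh1, Lox, Mmp2 and Tgfb1; other members were given by range or count, and Col14a1, Col17a1 and Col23a1 in more detail after their values were seen. Alternatives were other size factors, filters, a replicate block, only the 2 groups compared, DESeq2 1.42.0, limma voom 3.58.1 and leaving out each library. Median total count was 63588713. The podocyte marker list is not reported here.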

Additional observations from a re-analysis of the deposited data

Results flagged for a closer look

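Among 105 groups of 4 CPM values (35 tested collagen genes in 3 groups), 10 held a value whose gap to its nearest neighbour was above Dixon's 95% critical share of the group's range, where chance gives about 5%. DN replicate 4 held 4 of the 10. It was high for Col1a1 (114 CPM, against 12.6 to 23.8 CPM in the other DN libraries), Col3a1 (177 CPM, against 14.4 to 26.7 CPM), Col5a2 (14.6 CPM, against 4.40 to 4.66 CPM) and Col17a1 (3.99 CPM, against 0.0528 to 0.167 CPM). DN replicate 3 was low for Col20a1 (4.27 CPM, against 6.55 to 7.02 CPM).

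In DN+NaB, replicate 3 was low for Col5a2 (4.72 CPM, against 6.34 to 6.43 CPM) and replicate 2 for Col24a1 (0.265 CPM, against 0.617 to 0.630 CPM). In NC, replicate 3 was low for Col5a1 (25.6 CPM, against 40.4 to 43.1 CPM), replicate 4 low for Col18a1 (238 CPM, against 291 to 294 CPM) and replicate 1 high for Col16a1 (7.23 CPM, against 5.42 to 5.63 CPM).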

How the results depend on the processing

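The DN against NC count of 15 collagen calls was 13 to 20 under the alternatives to the model and 11 to 17 with 1 library left out; DESeq2 gave 16 lower and Col23a1 higher. For DN+NaB against NC it was 13 to 22 and 9 to 15 (9 without DN+NaB replicate 3); DESeq2 gave 17 lower and Col18a1 and Col23a1 higher. Between DN+NaB and DN it was 0 in every setting. Single-gene values were followed for all 35 tested collagen genes in DN against NC and for fewer of them in the other comparisons. For DN against NC 508 of 553 values kept direction and side of the threshold. The same held for 170 of 173 in DN+NaB against DN and 337 of 382 in DN+NaB against NC.

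Over all genes, limma voom called 2244 genes for DN against NC in place of 1443, and 4898 for DN+NaB against NC in place of 2729. With 1 library left out the counts ran from 942 to 1976 and from 1833 to 2318. For DN+NaB against DN the 4 genes became 22 with RLE factors, 26 with library size only, 27 with no filter, 17 with the 1 CPM filter, 0 with only the 2 groups compared, 257 with DESeq2, 69 with limma voom and 0 to 67 with 1 library left out. The cause was not tested. Library size alone shifted the median of all genes to -0.08 for DN and -0.12 for DN+NaB against NC, and split the DN calls into 503 higher and 1103 lower, beside 669 and 774.

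Directions turned for 6 values of 4 of the results followed. The Col17a1 log2 fold change of DN over NC was -0.23 with limma voom, and the Col3a1 value of DN+NaB over DN was 0.10. With 1 library left out they ran from -0.72 to 3.10 and from -1.36 to 0.48, Col1a1 of DN+NaB over DN from -1.20 to 0.24, and Col4a2 of DN+NaB over NC from -0.089 to 0.024. The Col5a2 and Col11a1 log2 fold changes of DN+NaB over DN, not among the results followed, were -0.24 and -0.62 with all libraries. They were 0.40 and 0.62 without DN replicate 4.

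A replicate block gave 13, 0 and 17 collagen calls for DN against NC, DN+NaB against DN and DN+NaB against NC, and 1416, 7 and 2891 over all genes. The block lost the calls of Col6a3 and Col6a5 for DN and of Col4a4 for DN+NaB, and added Col19a1, Col23a1 and Col27a1 for DN+NaB, Col23a1 as higher. Deviations of same-numbered libraries correlated at -0.25 to 0.27, over 0.1 in 1 of 4 pairs for DN and NC, 2 of 4 for DN+NaB and DN and 3 of 4 for DN+NaB and NC. Since not every pair was over 0.1 and no label pairs them, the libraries were not treated as paired. Depth limits Col6a4, Col6a5, Col6a6, Col7a1, Col8a2, Col11a1, Col17a1, Col19a1 and Col24a1, which had few counts in some libraries.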
